A study of Mus musculus with 4 samples.

Results

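The genes described here are the Wnt ligands, their receptors and their secreted modulators, with the core of the intracellular pathway, in EGFP-expressing cells of the mouse testis. They were taken by gene symbol, and 64 of the 22802 rows of the expression table matched. The 64 rows hold 19 Wnt ligands, 2 secretion factors, 10 Frizzled receptors, 2 co-receptors, 3 alternative receptors, 7 ligand antagonists, 4 Dickkopf genes, 4 R-spondins, 3 R-spondin receptors, 2 receptor ubiquitin ligases, 4 genes of the destruction complex and beta-catenin, and 4 transcription factors. No member fell in a row that names several genes.

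Testes of C57BL/6J mice carrying mFLE-Cre and CAG-CAT-EGFP were dispersed at postnatal day 10, and interstitial cells were sorted for RNA sequencing into laminin-positive and laminin-negative populations, with 2 samples of each. In the reporter, the ubiquitous CAG promoter drives EGFP once Cre has removed a stop cassette, and mFLE is, in published usage, a fetal Leydig enhancer of Nr5a1, the gene of the steroidogenic factor SF-1. EGFP therefore marks cells in which Cre has acted at any time, and both populations carry the same alleles. The sample labels call both populations EGFP-positive, whereas the design text gives the laminin-positive cells as positive and the laminin-negative cells as weak for EGFP, so laminin staining and EGFP level may differ together. The labels do not say how many animals were pooled or whether the samples came from separate animals. Each p-value rests on the spread of 2 libraries per population, with variance shared in large part across genes. That spread may itself be technical.

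Wnt proteins are lipid-modified, short-range signals. They bind a Frizzled receptor together with Lrp5 or Lrp6, which halts the destruction complex of Axin and Apc, so that beta-catenin accumulates and acts with Tcf and Lef factors on target genes. Other Wnt proteins signal through Ror2 or Ryk without beta-catenin, and R-spondins, acting on Lgr receptors, protect Frizzled from the ubiquitin ligases Znrf3 and Rnf43. In the embryonic gonad, Rspo1, Wnt4 and beta-catenin promote ovarian development, and the testis programme opposes them.

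Values are FPKM, by definition a level scaled to transcript length and to the mapped fragments of the library. Levels of different genes can therefore be set side by side. How these libraries were scaled is not given. The FPKM of a library added up to 491475 to 548986, with 11794 to 12011 rows at 1 FPKM or more. Fragment totals are not given. Among genes with 1 annotated transcript, the lowest values of FPKM times transcript length in kilobases piled up at 0.0348 to 0.0373. If this is 1 fragment, 1 FPKM of a 2 kb transcript was roughly 53.6 to 57.5 fragments. Higher multiples were not separated, however, and whole fragments were not recovered. Marker lists differed between the populations. All 7 Leydig cell markers were lower in laminin-positive cells (summed level 162 to 208 FPKM, against 4613 to 4870 in laminin-negative cells). Most of each sum came from a row naming both Insl3 and Jak3. That row had 126.4 and 86.97 FPKM in laminin-positive libraries, against 4080 and 3822 FPKM in laminin-negative libraries. Lower too were all 6 fibroblast markers (374 to 394 FPKM in laminin-positive, 1392 to 1427 FPKM in laminin-negative cells). Pdgfra and Col15a1 made up most of the laminin-positive sum and fell only 1.275-fold and 1.224-fold. Dpt, Clec3b, Lum and Pi16 had means of 1.20, 2.02, 0.392 and 0.290 FPKM in laminin-positive cells. In laminin-negative cells they had 103, 745.5, 54.5 and 27.7 FPKM. All 8 smooth muscle and peritubular myoid markers were higher (5856 to 5949 FPKM in laminin-positive, 213 to 232 FPKM in laminin-negative cells), as were all 6 pericyte markers (309.6 to 315 FPKM in laminin-positive, 46.1 to 49.6 FPKM in laminin-negative cells). Macrophage markers were higher in 7 of 7 cases (37.5 to 43.8 FPKM in laminin-positive, 4.15 to 6.84 FPKM in laminin-negative cells), germ cell markers in 7 of 7 (48.1 to 50.0 FPKM in laminin-positive, 15.4 to 16.9 FPKM in laminin-negative cells) and Sertoli cell markers in 4 of 6 tested (134 to 143 FPKM in laminin-positive, 61.8 to 66.0 FPKM in laminin-negative cells). Most of each Sertoli cell sum was Aard, with 99.96 and 104.5 FPKM in laminin-positive libraries, against 51.8 and 49.0 FPKM in laminin-negative libraries. Sox9 and Gata1 did not pass. Of the endothelial markers, 1 (Emcn) was higher and 2 (Cdh5 and Tek) were lower among 3 tested. The sum was 13.9 to 14.1 FPKM in laminin-positive and 169 to 177 FPKM in laminin-negative cells, and most of it was Cdh5. The untested Pecam1, Kdr and Tie1 went the way of Emcn, at means of 0.742, 0.499 and 0.334 FPKM in laminin-positive cells. In laminin-negative cells they had 0.133, 0.062 and 0 FPKM. Some of these calls were fixed by the filter, since 5 macrophage, 2 germ cell, 2 Sertoli cell and 1 endothelial marker passed it only through laminin-positive cells, and 2 fibroblast and 1 endothelial marker only through laminin-negative cells. Erythroid markers summed to at most 1.06 FPKM in any library. The part that any of these cell types has in the Wnt results was not tested, and in sorted bulk cells fewer cells of a type and less RNA per cell cannot be told apart.

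Laminin-positive and laminin-negative cells were compared on log2(FPKM + 1), a scale that understates changes of low genes, with limma fitted over the 12348 rows that reached 1 FPKM in at least 2 libraries. Of the 64 members, 36 were tested; in laminin-positive cells 15 rose and 12 fell at a Benjamini-Hochberg adjusted p under 0.05, and 9 did not pass. Across all tested rows 52.9% were called, 26.6% higher and 26.3% lower, against 75.0% of the tested members. At least a 2-fold ratio of mean FPKM was reached by 4 members called higher, where 9.80% of all tested rows did, and by 6 called lower, where 7.84% did. The libraries of the populations did not overlap for 30 of the 36 members, and for 77.2% of all tested rows. The counts are a description, because 4 of the members called lower (Wnt2, Wnt2b, Rspo1 and Sfrp5) passed the filter only through laminin-negative cells and had to differ. The median log2 difference was 0.10 over the tested members and 0.01 over all tested rows. With libraries set to equal FPKM sums, the split became 17 members higher and 8 lower. An exact permutation test of 2 against 2 samples cannot go below p = 0.33 and was not used. Of the 27 calls, 10 held under each alternative that tested them, those of Wnt2, Wnt2b, Wnt4, Wnt5a, Wnt6, Porcn, Rspo1, Sfrp5, Ctnnb1 and Tcf7. The other 17 did not pass when each gene's variance was estimated on its own, with limma adjusted p from 0.0507 for Fzd1 to 0.247 for Sfrp2; among them Axin2 had 0.0557, Wnt9a 0.0652 and Lrp5 0.072.

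**Figure D1:**
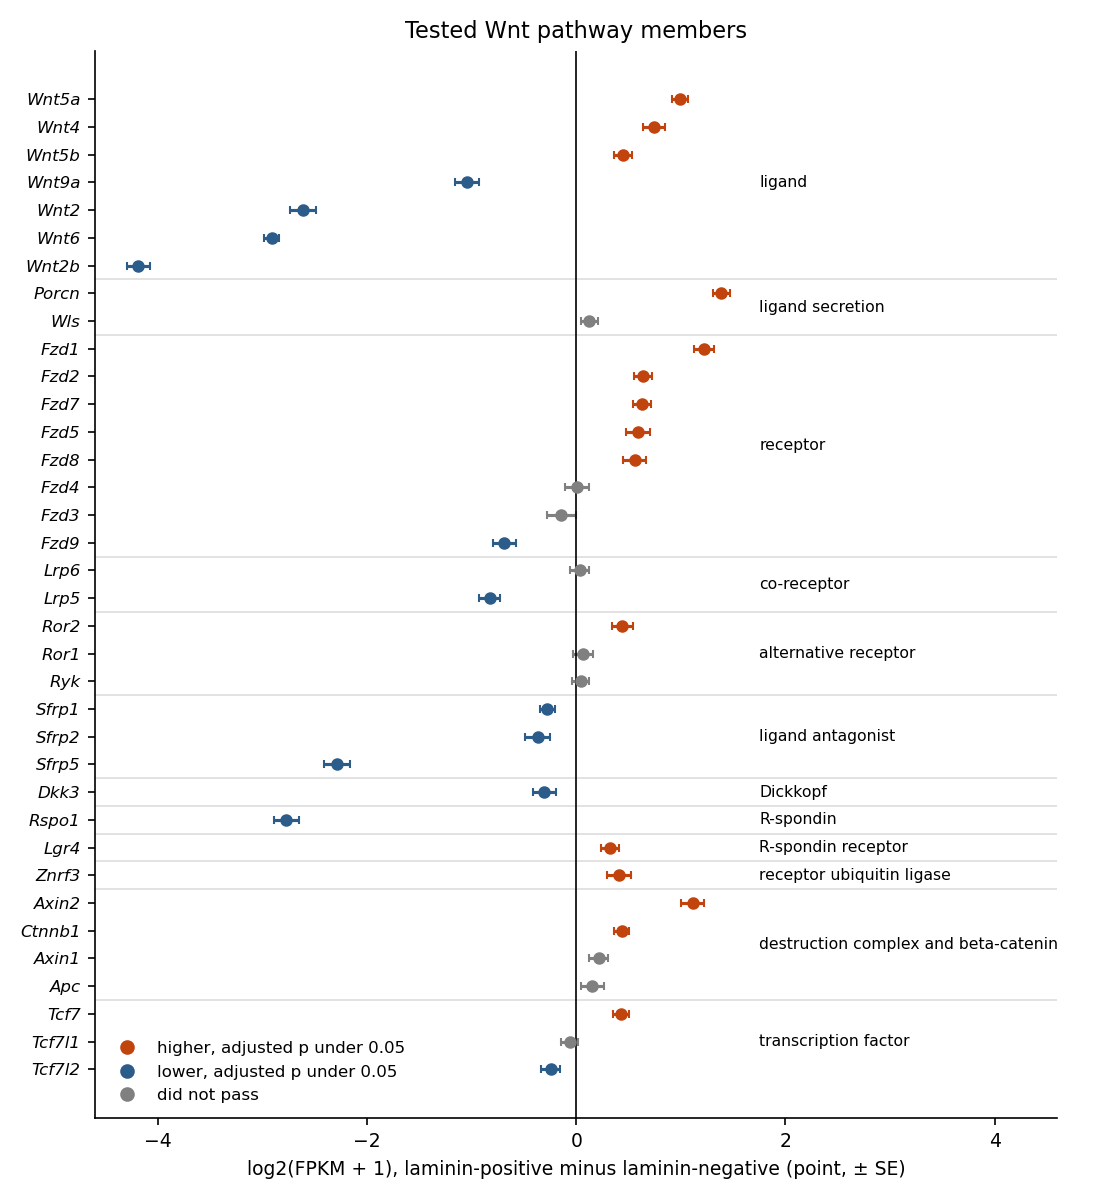
Difference of each of the 36 tested members in log2(FPKM + 1), laminin-positive minus laminin-negative, as a point with its limma SE, ordered by role; red and blue points passed at an adjusted p under 0.05 and grey points did not. The largest falls were those of Wnt2b at −4.19, Wnt6 at −2.91 and Rspo1 at −2.77, and the largest rise was that of Porcn at 1.39.

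The repertoire of ligands differed between the populations. Wnt6, Wnt2b, Wnt2 and Wnt9a fell in laminin-positive cells, while Wnt5a, Wnt4 and Wnt5b rose. Thus all 7 tested ligands passed, where 52.9% of all tested rows did. Wnt2 and Wnt2b passed the filter only through laminin-negative cells and had to differ. With each gene's variance estimated on its own, Wnt9a (limma adjusted p = 0.0652) and Wnt5b (0.114) did not pass. Wnt6, a ligand of epithelia and mesenchyme, had 24.17 and 24.04 FPKM in laminin-positive libraries, against 196 and 179.9 FPKM in laminin-negative libraries. It was by far the most abundant ligand transcript of the laminin-negative cells and only the third of the laminin-positive cells. The level fell 7.81-fold (log2 difference −2.91, SE 0.07, limma adjusted p = 3.49e-10). The gene lies on chromosome 1 from 74771892 to 74785322 on the plus strand of GRCm38.

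Wnt2b, which signals through beta-catenin, had 0.474 and 0.538 FPKM in laminin-positive libraries, against 28.6 and 24.4 FPKM in laminin-negative libraries. The populations lay far apart, with a level of roughly 42 to 51 fragments left in the laminin-positive libraries. The mean of 0.506 ± 0.045 FPKM was 52.5-fold below the 26.5 ± 2.96 FPKM of laminin-negative cells (SD, n = 2 each; log2 difference −4.19, SE 0.11, limma adjusted p = 4.77e-10). Wnt2b is on chromosome 3 at 104945272 to 104961921, on the minus strand.

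Wnt2, a close relative of Wnt2b, stood at 0.0178 and 0.09997 FPKM in laminin-positive libraries, against 5.10 and 5.90 FPKM in laminin-negative libraries. The laminin-positive values are worth only about 1.1 and 6.4 fragments, so no fold is given (log2 difference −2.62, SE 0.13, limma adjusted p = 3.5e-08). Wnt9a, a ligand with roles in joints and blood stem cells, had 3.84 and 3.60 FPKM in laminin-positive libraries, against 9.67 and 7.85 FPKM in laminin-negative libraries. It was thus transcribed in both populations and fell 2.36-fold (limma adjusted p = 2.57e-05).

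Wnt5a, the best known ligand of the pathway branch without beta-catenin, had 53.6 and 57.7 FPKM in laminin-positive libraries, against 28.0 and 27.0 FPKM in laminin-negative libraries. It was the leading ligand transcript of the laminin-positive cells and abundant in both populations. The rise was 2.03-fold (log2 difference 0.99, SE 0.08, limma adjusted p = 1.35e-06; chromosome 14, 28504750 to 28527448, plus strand). Its paralogue Wnt5b had 34.9 and 35.3 FPKM in laminin-positive libraries, against 27.5 and 23.8 FPKM in laminin-negative libraries. Wnt5b rose only 1.37-fold (limma adjusted p = 0.00145). Wnt4, a ligand of female sexual development and of kidney tubules, had 4.62 and 4.35 FPKM in laminin-positive libraries, against 2.30 and 2.25 FPKM in laminin-negative libraries. Its libraries did not overlap, and the rise was 1.97-fold (limma adjusted p = 2.04e-04).

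The other 12 ligands were below the filter and outside the test. Wnt10b was at 0.0207 and 0 FPKM in laminin-positive libraries, against 0.904 and 0.678 FPKM in laminin-negative libraries. Wnt10a had 0.178 and 0.141 FPKM in laminin-positive libraries, against 0.729 and 1.04 FPKM in laminin-negative libraries. Wnt11, another ligand that acts largely without beta-catenin, had 0.489 and 0.298 FPKM in laminin-positive libraries, against 0.888 and 0.784 FPKM in laminin-negative libraries. All 3 had lower values in both laminin-positive libraries than in either laminin-negative one, and in a fit without the filter they were called lower (limma adjusted p = 0.00117 for Wnt10b, 0.00446 for Wnt10a and 0.0252 for Wnt11). The remaining 9 stayed at or under 0.0885 FPKM in every library, and Wnt3a and Wnt16 were listed at 0 throughout.

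**Figure D2:**
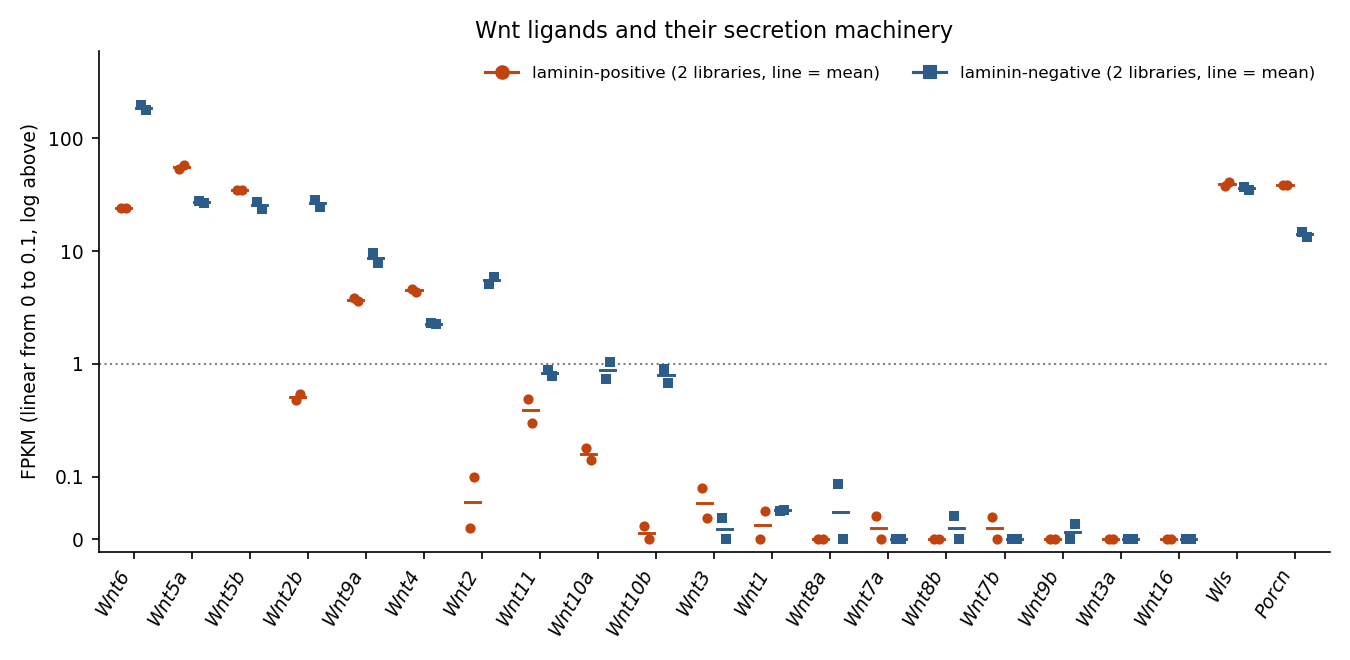
FPKM of the 19 Wnt ligand genes and of Wls and Porcn in each library, on an axis that is linear from 0 to 0.1 and logarithmic above; points are libraries, short lines population means, and the dotted line marks 1 FPKM. Wnt6, Wnt2b, Wnt2 and Wnt9a sit lower in laminin-positive than in laminin-negative libraries, and Wnt5a, Wnt4 and Porcn higher.

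Summed over the 19 ligands, the level was 122 and 126 FPKM in laminin-positive libraries, against 300.3 and 274 FPKM in laminin-negative libraries, a ratio of 0.433. Wnt6 made up 19.7% and 19.1% of the sum in laminin-positive libraries, against 65.4% and 65.7% in laminin-negative libraries. Wnt5a made up 43.7% and 45.8% in laminin-positive libraries, against 9.31% and 9.85% in laminin-negative libraries. Without Wnt6, a subset chosen after the values were seen, the other 18 ligands summed to 98.3 and 102 FPKM in laminin-positive libraries, against 104 and 93.8 FPKM in laminin-negative libraries, so these sums overlapped. Among laminin-positive cells the order was Wnt5a, Wnt5b, Wnt6, then Wnt4 and Wnt9a, with no overlap between neighbours. In laminin-negative cells Wnt6 came first, Wnt5a, Wnt2b and Wnt5b followed with overlapping libraries, and Wnt9a, Wnt2 and Wnt4 came next.

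**Figure D3:**
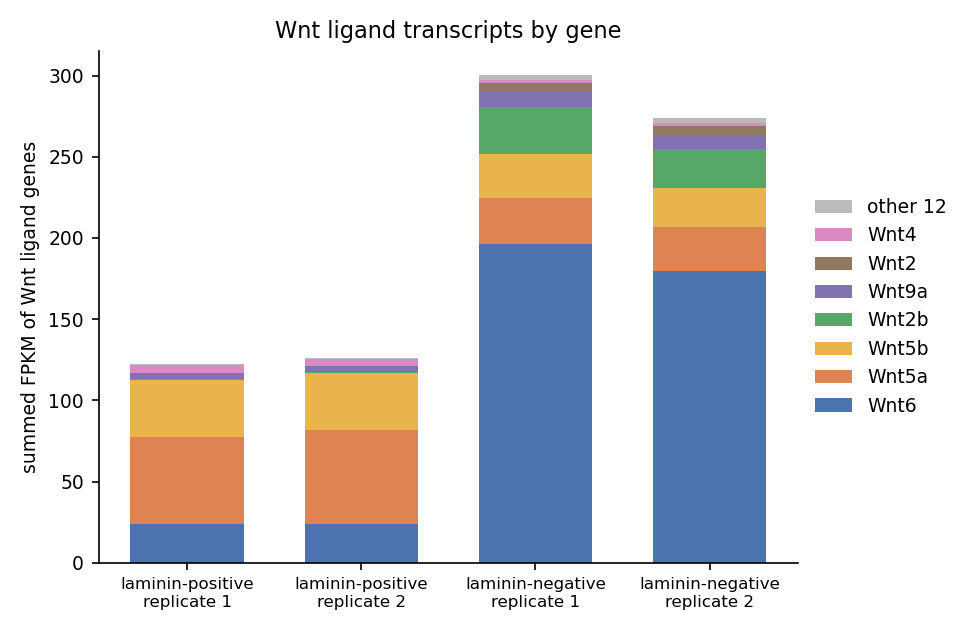
Summed FPKM of the 19 Wnt ligand genes in each library, stacked by gene, with the 12 genes below the filter merged. The bars reach 122 and 126 FPKM in laminin-positive libraries and 300.3 and 274 FPKM in laminin-negative libraries, and the Wnt6 part is the largest of the laminin-negative bars.

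Promoters of the ligands with the widest differences are shown with that of Axin2, a feedback target that rose, since members of both directions shared a feature that symbols do not give: many CpG dinucleotides. The sequences are from RefSeq on GRCm38.p6, from 250 bases before to 50 after the gene start, 5′ to 3′ on the gene's strand, with CpG in capitals.
Wnt2b, chr3:104961660-104961959, minus strand: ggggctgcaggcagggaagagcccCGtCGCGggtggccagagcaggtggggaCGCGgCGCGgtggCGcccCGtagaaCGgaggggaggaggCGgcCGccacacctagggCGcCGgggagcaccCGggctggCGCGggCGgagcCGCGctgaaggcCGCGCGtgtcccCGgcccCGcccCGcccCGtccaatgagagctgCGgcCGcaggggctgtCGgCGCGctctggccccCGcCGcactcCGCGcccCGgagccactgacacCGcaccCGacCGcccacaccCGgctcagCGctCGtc
Wnt6, chr1:74771642-74771941, plus strand: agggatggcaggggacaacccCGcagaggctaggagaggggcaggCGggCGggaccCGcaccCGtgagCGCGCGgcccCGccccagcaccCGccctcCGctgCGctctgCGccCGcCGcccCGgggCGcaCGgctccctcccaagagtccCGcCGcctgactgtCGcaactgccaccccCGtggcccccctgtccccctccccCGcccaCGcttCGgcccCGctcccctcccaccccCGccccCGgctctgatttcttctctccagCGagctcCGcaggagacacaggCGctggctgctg
Axin2, chr11:108920099-108920398, plus strand: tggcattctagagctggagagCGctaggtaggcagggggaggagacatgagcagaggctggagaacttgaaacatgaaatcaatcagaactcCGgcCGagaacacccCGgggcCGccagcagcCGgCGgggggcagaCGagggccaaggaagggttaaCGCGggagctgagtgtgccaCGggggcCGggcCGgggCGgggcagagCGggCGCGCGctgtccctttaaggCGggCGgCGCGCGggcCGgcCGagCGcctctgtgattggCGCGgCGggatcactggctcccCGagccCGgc
They hold 43, 31 and 31 CpG. RefSeq promoters were found for 42 of the 64 members, 52 in all. The median was 31.5 CpG in 14 promoters of members called higher, 30 in 10 promoters of members called lower, 32 in 5 promoters of members tested and not called, and 21 in 23 promoters of members below the filter, against 7 over all 32851 promoters. GC content had a median of 72.3% in the promoters of members called higher and 69.5% in those of members called lower, against 52.7% overall. The sets were wide, with as few as 4 CpG in a promoter of a member called higher and 7 in one of a member called lower. The values over all promoters include genes that were not tested, and promoters of all tested genes were not taken on their own. The contrast therefore cannot be read as particular to Wnt genes.

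The letters bound by Tcf and Lef factors, CTTTGAA or CTTTGAT, and those bound by SF-1, CAAGGTCA or CAAGGCCA, were searched on both strands; the motifs do not overlap each other. A Tcf and Lef match was in 3 of the 52 member promoters, those of Wnt5b, Wnt11 and Dkk1 (5.77%), and in 8.65% of all promoters. The only one in a tested member lies 71 to 65 bases before a start of Wnt5b and is shown in capitals as the sole match among members that were called.
Wnt5b, chr6:119449337-119449636, minus strand: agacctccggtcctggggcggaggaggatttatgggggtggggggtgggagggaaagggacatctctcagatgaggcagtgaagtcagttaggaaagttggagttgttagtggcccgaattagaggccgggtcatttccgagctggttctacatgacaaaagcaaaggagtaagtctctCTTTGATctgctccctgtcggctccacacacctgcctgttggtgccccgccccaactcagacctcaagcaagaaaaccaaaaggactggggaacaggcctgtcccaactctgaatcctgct
An SF-1 match was in 0 of the 52 member promoters and in 3.92% of all promoters. Missing letters concern these windows only.

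Of the machinery that releases Wnt proteins, Porcn, the enzyme that attaches their lipid, rose, and the carrier gene Wls did not pass. Porcn had 38.8 and 38.5 FPKM in laminin-positive libraries, against 14.9 and 13.5 FPKM in laminin-negative libraries. The laminin-positive replicates nearly coincided and the populations were clearly apart, with a 2.73-fold rise (log2 difference 1.39, SE 0.08, limma adjusted p = 1.65e-07; chromosome X, 8193848 to 8206525, minus strand). Wls had 37.7 and 41.4 FPKM in laminin-positive libraries, against 37.2 and 35.1 FPKM in laminin-negative libraries. Its log2 difference was 0.13 (SE 0.08, limma adjusted p = 0.209), and it was called higher with equal FPKM sums (adjusted p = 0.0353).

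Most tested Frizzled receptors rose in laminin-positive cells. Of 8 tested, Fzd1, Fzd2, Fzd5, Fzd7 and Fzd8 rose, Fzd9 fell, and Fzd3 and Fzd4 did not pass. That is 75.0% called, against 52.9% of all tested rows, of which 26.6% rose. None of these calls held when each gene's variance was estimated on its own, with limma adjusted p from 0.0507 for Fzd1 to 0.156 for Fzd8. Fzd2, the most abundant Frizzled gene of both populations, had 69.8 and 74.4 FPKM in laminin-positive libraries, against 49.3 and 42.8 FPKM in laminin-negative libraries. It rose 1.57-fold (limma adjusted p = 9.91e-05). Fzd1 had 32.8 and 32.9 FPKM in laminin-positive libraries, against 14.9 and 12.3 FPKM in laminin-negative libraries. This was the widest receptor difference, 2.42-fold (log2 difference 1.22, SE 0.10, limma adjusted p = 1.6e-06; chromosome 5, 4753839 to 4758035, minus strand). Fzd7, a receptor of stem cells, had 29.0 and 30.7 FPKM in laminin-positive libraries, against 19.8 and 18.1 FPKM in laminin-negative libraries. It too kept the populations apart, at 1.57-fold.

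Fzd8 rose 1.51-fold to a mean of 15.6 ± 0.615 FPKM in laminin-positive cells, against 10.4 ± 1.80 FPKM in laminin-negative cells (SD, n = 2 each). Fzd5 stood at 4.58 ± 0.448 FPKM in laminin-positive cells and 2.70 ± 0.0863 FPKM in laminin-negative cells. Fzd9 went the other way, at 3.98 ± 0.533 FPKM in laminin-positive cells and 7.01 ± 0.120 FPKM in laminin-negative cells (limma adjusted p = 4.03e-04). Fzd3 had 2.01 and 2.48 FPKM in laminin-positive libraries, against 2.91 and 2.25 FPKM in laminin-negative libraries. Fzd4, the receptor of Norrin, had 2.60 and 2.85 FPKM in laminin-positive libraries, against 2.66 and 2.74 FPKM in laminin-negative libraries. In both genes the libraries overlapped. With Dkk3 they were the tested members nearest to the filter, while Rspo3, Lgr6 and Wnt11 were nearest below it. Fzd6 and Fzd10 stayed at or under 0.238 FPKM in every library.

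Summed over the 10 Frizzled genes, the level was 162 and 167 FPKM in laminin-positive libraries, against 111 and 97.2 FPKM in laminin-negative libraries, a ratio of 1.58. Fzd2 held much the same share throughout, 43.1% and 44.6% in laminin-positive libraries, against 44.4% and 44% in laminin-negative libraries. Fzd1 held 20.3% and 19.7% in laminin-positive libraries, against 13.4% and 12.6% in laminin-negative libraries.

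The co-receptors differed. Lrp5, first known for its role in bone mass, had 11.0 and 9.44 FPKM in laminin-positive libraries, against 19.9 and 17.9 FPKM in laminin-negative libraries. It fell 1.85-fold (log2 difference −0.83, SE 0.10, limma adjusted p = 4.51e-05). Lrp6 had 20.8 and 21.6 FPKM in laminin-positive libraries, against 22.6 and 19.0 FPKM in laminin-negative libraries, and the libraries overlapped (limma adjusted p = 0.801).

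Among the alternative receptors, Ror2, the Wnt5a receptor of the branch without beta-catenin, had 17.4 and 16.7 FPKM in laminin-positive libraries, against 13.5 and 11.2 FPKM in laminin-negative libraries. It rose 1.38-fold (limma adjusted p = 0.00371). Ror1 and Ryk did not pass. Ror1 had means of 10.6 ± 0.251 FPKM in laminin-positive cells and 10.2 ± 0.990 FPKM in laminin-negative cells. Ryk, an inactive receptor kinase that binds Wnt proteins, had 37.3 and 39.4 FPKM in laminin-positive libraries, against 35.0 and 39.6 FPKM in laminin-negative libraries, with overlap.

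**Figure D4:**
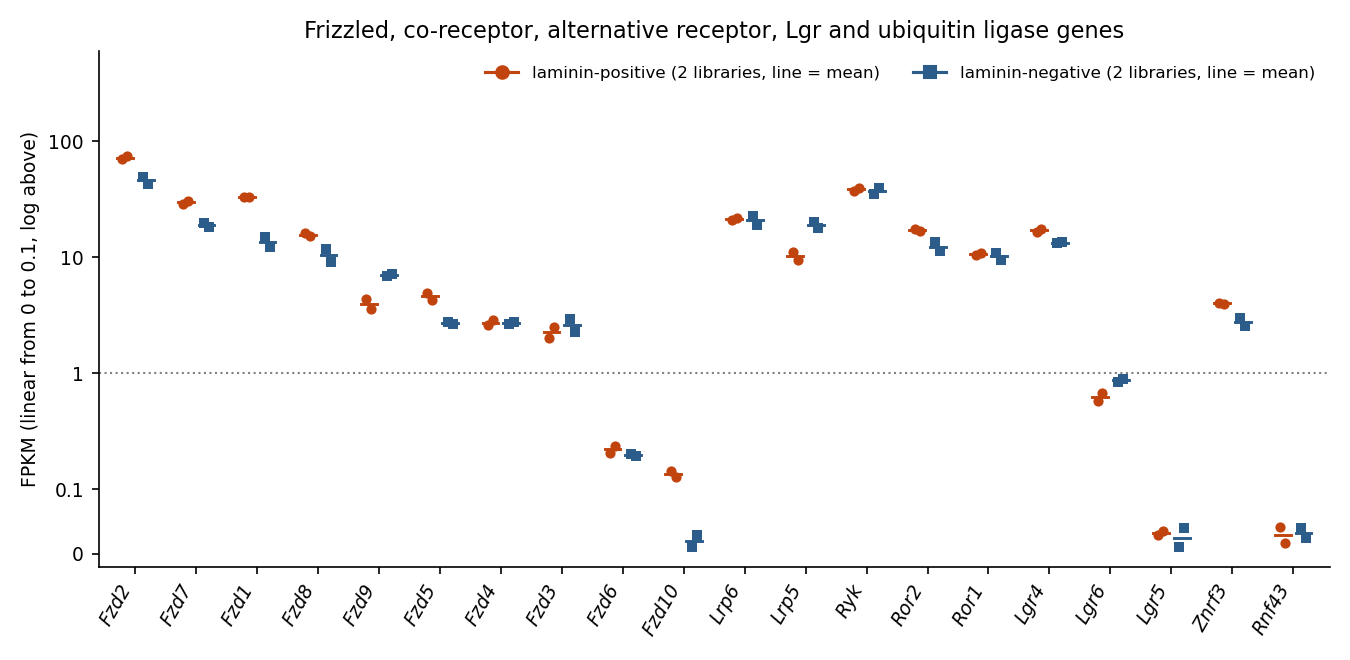
FPKM of the Frizzled, Lrp, Ror, Ryk, Lgr and ubiquitin ligase genes in each library, on an axis that is linear from 0 to 0.1 and logarithmic above; points are libraries, short lines population means, and the dotted line marks 1 FPKM. Fzd2 at 69.8 to 74.4 FPKM in laminin-positive and 42.8 to 49.3 FPKM in laminin-negative libraries is the highest, and Lgr5 and Rnf43 lie near 0.

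Of the R-spondins, which strengthen Wnt signals, Rspo1 alone was tested, and it fell. Rspo1 had 0.345 and 0.334 FPKM in laminin-positive libraries, against 8.84 and 7.5 FPKM in laminin-negative libraries. The laminin-positive level is worth roughly 17 to 18 fragments, and the fall was 24.1-fold (log2 difference −2.77, SE 0.12, limma adjusted p = 1.59e-08; chromosome 4, 124986430 to 125009099, plus strand). Rspo3 was just below the filter, at 0.0136 and 0.0240 FPKM in laminin-positive libraries, against 1.23 and 0.921 FPKM in laminin-negative libraries. Rspo2 had 0.132 and 0.186 FPKM in laminin-positive libraries, against 0.0120 and 0.0484 FPKM in laminin-negative libraries, and Rspo4 overlapped between the populations at 0.259 to 0.493 FPKM. Fitted without the filter, Rspo3 was called lower (limma adjusted p = 0.000883) and Rspo2 higher (0.043), and Rspo4 did not pass (0.999).

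The R-spondin receptor Lgr4 had 16.4 and 17.5 FPKM in laminin-positive libraries, against 13.1 and 13.5 FPKM in laminin-negative libraries. It was the main receptor of its family in both populations and rose 1.27-fold (limma adjusted p = 0.0085). Leaving out laminin-positive replicate 2 took it past the threshold (adjusted p = 0.0951). Lgr6 was below the filter at 0.572 and 0.672 FPKM in laminin-positive libraries, against 0.837 and 0.896 FPKM in laminin-negative libraries, and Lgr5, a stem cell marker of the gut, did not exceed 0.0402 FPKM. Znrf3, the ubiquitin ligase that removes Frizzled from the membrane and is a Wnt target, had 4.05 and 3.96 FPKM in laminin-positive libraries, against 2.996 and 2.538 FPKM in laminin-negative libraries. It rose 1.45-fold (limma adjusted p = 0.0113), but did not pass when laminin-positive replicate 1 (0.0609) or laminin-negative replicate 2 (0.0562) was left out. Its relative Rnf43 did not exceed 0.0420 FPKM.

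The 3 tested secreted antagonists that bind Wnt proteins were all called lower in laminin-positive cells, as were 26.3% of all tested rows. They fell to very different degrees. Sfrp5 passed the filter only through laminin-negative cells and had to differ. Sfrp5 had 0.299 and 0.219 FPKM in laminin-positive libraries, against 5.37 and 4.94 FPKM in laminin-negative libraries. It fell 19.9-fold (log2 difference −2.29, SE 0.12, limma adjusted p = 6.57e-08; chromosome 19, 42197971 to 42202252, minus strand), with roughly 12 to 15 fragments behind the laminin-positive values. Sfrp1, the dominant antagonist of both populations, had 56.2 and 59.5 FPKM in laminin-positive libraries, against 69.8 and 71.0 FPKM in laminin-negative libraries. The libraries did not overlap, yet the fall was 1.22-fold (limma adjusted p = 0.0076), and the call was lost with equal FPKM sums (0.107) or without laminin-positive replicate 1 (0.0839). Sfrp2 had 8.05 and 6.41 FPKM in laminin-positive libraries, against 9.01 and 10.2 FPKM in laminin-negative libraries. Its call (limma adjusted p = 0.0221) was lost with equal FPKM sums (0.0793), without laminin-positive replicate 2 (0.233) and without laminin-negative replicate 2 (0.124).

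Sfrp4 was below the filter, at 0.197 and 0 FPKM in laminin-positive libraries, against 1.29 and 0.656 FPKM in laminin-negative libraries. Wif1, which also binds Wnt proteins, had 0.118 and 0.127 FPKM in laminin-positive libraries and was listed at 0 in both laminin-negative libraries. Frzb overlapped between the populations and stayed under 0.495 FPKM, and Notum, the enzyme that removes the lipid of Wnt proteins, did not exceed 0.0606 FPKM. Among the Dickkopf genes, whose classical members block Lrp5 and Lrp6, only Dkk3 was tested. It is the member that does not act as a classical Lrp inhibitor, and it had 2.30 and 2.59 FPKM in laminin-positive libraries, against 3.19 and 3.32 FPKM in laminin-negative libraries. Its fall (limma adjusted p = 0.0440) was not called in any of the 4 fits that left out a library, with adjusted p from 0.0675 to 0.262. Dkk1 and Dkk2 did not exceed 0.0915 FPKM, and Dkk4 was listed at 0 throughout.

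**Figure D5:**
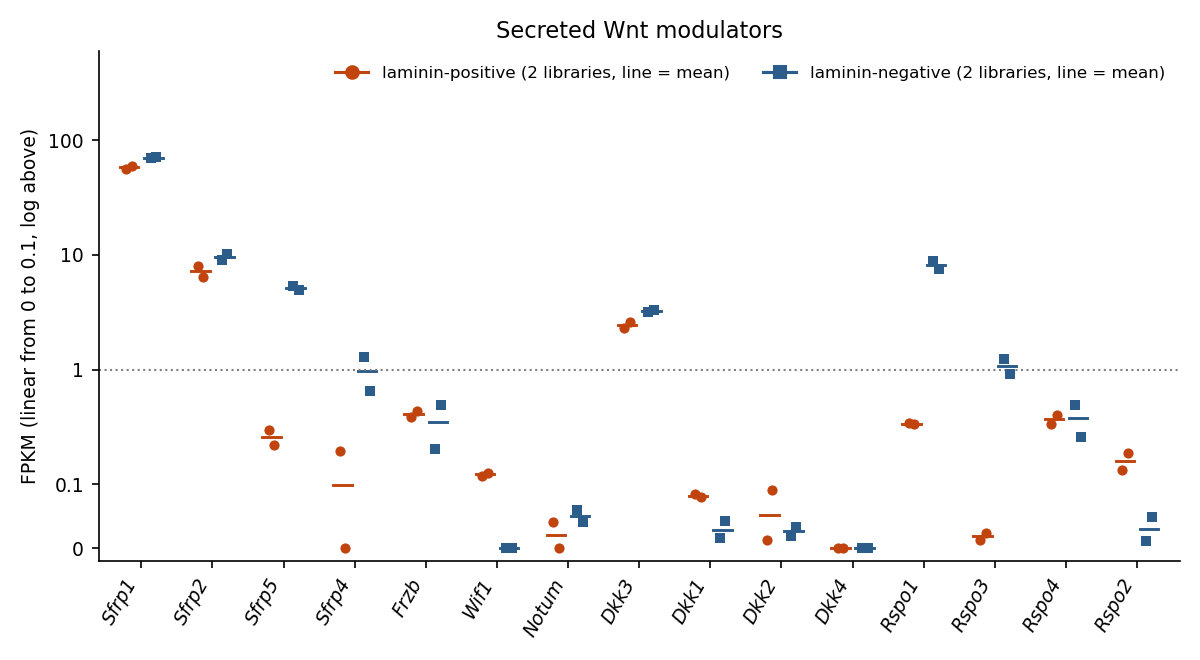
FPKM of the Wnt-binding antagonists, Dickkopf genes and R-spondins in each library, on an axis that is linear from 0 to 0.1 and logarithmic above; points are libraries, short lines population means, and the dotted line marks 1 FPKM. Sfrp1 is the highest in both populations, and Sfrp5, Rspo1 and Rspo3 are lower in laminin-positive than in laminin-negative libraries.

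Inside the cell, Axin2, a scaffold of the destruction complex and a widely used readout of beta-catenin signalling, had 9.64 and 10.6 FPKM in laminin-positive libraries, against 4.56 and 3.77 FPKM in laminin-negative libraries. It rose 2.43-fold (log2 difference 1.11, SE 0.11, limma adjusted p = 1.15e-05; chromosome 11, 108920349 to 108950783, plus strand), while several beta-catenin ligands, Wnt2b and Wnt2 among them, fell. Ctnnb1, the gene of beta-catenin, was the most abundant member, with 314 and 325 FPKM in laminin-positive libraries, against 236 and 237 FPKM in laminin-negative libraries. The rise was 1.35-fold (log2 difference 0.43, SE 0.07, limma adjusted p = 3.92e-04). Axin1 had 20.5 and 21.2 FPKM in laminin-positive libraries, against 19.2 and 16.6 FPKM in laminin-negative libraries, and did not pass (limma adjusted p = 0.0715), although it was called higher with equal FPKM sums (0.0157) and without laminin-negative replicate 1 (0.0200). Apc, at 6.86 ± 0.156 FPKM in laminin-positive cells and 6.09 ± 0.765 FPKM in laminin-negative cells, did not pass either.

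Of the transcription factors, Tcf7 had 23.7 and 23.6 FPKM in laminin-positive libraries, against 17.4 and 17.2 FPKM in laminin-negative libraries. Replicates were nearly equal, and the rise was 1.37-fold (limma adjusted p = 9.11e-04). Tcf7l1, mainly a repressor, had 22.6 and 20.4 FPKM in laminin-positive libraries, against 23.2 and 21.8 FPKM in laminin-negative libraries, with overlap. Tcf7l2 had 10.5 and 10.2 FPKM in laminin-positive libraries, against 12.1 and 12.9 FPKM in laminin-negative libraries. Its call (limma adjusted p = 0.0389) was lost with equal FPKM sums (0.274) and without laminin-positive replicate 1 (0.129), laminin-positive replicate 2 (0.197) or laminin-negative replicate 2 (0.123). Lef1 was below the filter, at 0.190 and 0.249 FPKM in laminin-positive libraries, against 0.0399 and 0.106 FPKM in laminin-negative libraries.

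Exons of 12 members, 6 of them tested (Wnt5a, Fzd5, Sfrp2, Axin2, Ctnnb1 and Tcf7l1), overlap a gene on the opposite strand. The library kit keeps strand, but the strand setting of the counting is not given, so reads of such partners may not have been told apart. Several ligand genes are neighbours on GRCm38. Wnt10a lies 6.19 kb from Wnt6 on the same strand of chromosome 1, and both had lower values in laminin-positive than in laminin-negative libraries. Wnt1, at 0.0469 FPKM or less, lies 11.7 kb from Wnt10b on chromosome 15, and Wnt3a, listed at 0, lies 16.2 kb from Wnt9a on chromosome 11.

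Target genes of the pathway, listed by their general repute as Wnt targets, went both ways. Of 33 listed, 21 were tested, 9 rose and 7 fell in laminin-positive cells, and the median log2 difference was 0.00. That is 76.2% called, against 52.9% of all tested rows; Cd44 and Fst passed the filter only through laminin-negative cells and had to differ. Those that rose most were Apcdd1, Nkd1 and Nkd2. Apcdd1, a membrane inhibitor of Wnt signalling that another list also holds, had 78.7 and 79.9 FPKM in laminin-positive libraries, against 12.3 and 13.8 FPKM in laminin-negative libraries (6.08-fold, limma adjusted p = 1.47e-09). Nkd1, which antagonises Dishevelled, had 19.8 and 18.4 FPKM in laminin-positive libraries, against 4.68 and 4.48 FPKM in laminin-negative libraries (4.16-fold, limma adjusted p = 4.86e-08). Its relative Nkd2 had 5.85 and 6.94 FPKM in laminin-positive libraries, against 1.22 and 1.07 FPKM in laminin-negative libraries. The populations were well apart for all 3 genes. Those that fell were led by the tight junction gene Cldn1, at 6.00 and 6.82 FPKM in laminin-positive libraries, against 62.9 and 69.9 FPKM in laminin-negative libraries. The mesenchymal factor Twist1 averaged 37.1 ± 3.11 FPKM in laminin-positive cells and 155 ± 3.17 FPKM in laminin-negative cells, and the hyaluronan receptor Cd44 0.604 ± 0.0910 FPKM in laminin-positive cells and 5.37 ± 0.215 FPKM in laminin-negative cells (SD, n = 2 each). Many of these genes answer to other pathways too.

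Other extracellular modulators were also split, with 7 of 21 tested genes higher and 9 lower in laminin-positive cells (median log2 difference 0.02), that is 76.2% called, against 52.9% of all tested rows. When each gene's variance was estimated on its own, 4 were lower. Musk passed the filter only through laminin-positive cells, and Sostdc1 and Ndp only through laminin-negative cells, so these 3 had to differ. Besides Apcdd1, those that rose most were Trabd2b, a membrane protease that cleaves Wnt proteins, with 6.87 and 7.78 FPKM in laminin-positive libraries, against 1.77 and 1.4 FPKM in laminin-negative libraries, and the muscle receptor kinase gene Musk, with 2.89 and 2.59 FPKM in laminin-positive libraries, against 0.223 and 0.279 FPKM in laminin-negative libraries. Igfbp4, a binding protein of insulin-like growth factors that also restrains Wnt signals, had 101.5 and 103 FPKM in laminin-positive libraries, against 645 and 565 FPKM in laminin-negative libraries (5.92-fold lower, limma adjusted p = 1.37e-09). The antagonist Sostdc1 had 0.468 and 0.306 FPKM in laminin-positive libraries, against 4.48 and 5.09 FPKM in laminin-negative libraries. Ndp, which encodes Norrin, had 0.259 and 0.177 FPKM in laminin-positive libraries, against 1.69 and 2.18 FPKM in laminin-negative libraries.

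Of the intracellular relay, 19 of 35 tested genes rose and 5 fell in laminin-positive cells (median log2 difference 0.26, against 0.01 over all tested rows). That is 68.6% called, against 52.9% of all tested rows, of which 26.6% rose and 26.3% fell; Cxxc4 and Frat1 passed the filter only through laminin-positive cells and had to differ. Dact3, a Dishevelled antagonist, had 105 and 111 FPKM in laminin-positive libraries, against 23.7 and 23.4 FPKM in laminin-negative libraries (4.59-fold, limma adjusted p = 2.04e-09). The Dishevelled-binding gene Cxxc4 had 3.76 and 5.02 FPKM in laminin-positive libraries, against 0.587 and 0.689 FPKM in laminin-negative libraries, and the cytoskeletal linker Macf1 31.8 and 32.9 FPKM in laminin-positive libraries, against 13.9 and 9.01 FPKM in laminin-negative libraries. The Groucho co-repressors divided. Tle1 had 21.2 and 20.8 FPKM in laminin-positive libraries, against 47.2 and 43.9 FPKM in laminin-negative libraries, and Tle2 averaged 4.77 ± 0.693 FPKM in laminin-positive cells and 10.6 ± 1.88 FPKM in laminin-negative cells. Tle3 and Tle4, named after their values were seen, rose 2.04-fold and 1.88-fold, Tle3 to 25.5 ± 0.262 FPKM in laminin-positive cells, against 12.6 ± 1.67 FPKM in laminin-negative cells. Dvl1, a Dishevelled gene, had the next widest fall, at 22.1 ± 1.17 FPKM in laminin-positive cells and 27.8 ± 2.47 FPKM in laminin-negative cells. The other Dishevelled genes, Dvl2 and Dvl3, also named after their values were seen, rose 1.17-fold and 1.37-fold. With each gene's variance estimated on its own, 4 of the list were called higher and 1 lower. Genes of the list called lower numbered 2 with equal FPKM sums, 2 without laminin-positive replicate 2 and 3 without laminin-negative replicate 1.

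Planar cell polarity and other genes of the branch without beta-catenin were called at 51.9%, near the 52.9% of all tested rows, with 8 of 27 tested genes higher and 6 lower in laminin-positive cells, and 3 and 2 when each gene's variance was estimated on its own. The 6 called lower include a row naming both Prickle4 and Tomm6, which cannot be credited to Prickle4 alone. Mapk10 passed the filter only through laminin-positive cells, and Nfatc1 and Nfatc2 only through laminin-negative cells, so they had to differ. The formin gene Daam2 had 14.0 and 14.6 FPKM in laminin-positive libraries, against 6.64 and 5.34 FPKM in laminin-negative libraries (2.39-fold, limma adjusted p = 7.99e-06). The kinase gene Mapk10 stood at 1.60 ± 0.0161 FPKM in laminin-positive cells and 0.530 ± 0.0789 FPKM in laminin-negative cells. Calcium-dependent factors divided, with Nfatc4 at 19.9 ± 0.239 FPKM in laminin-positive cells and 11.3 ± 1.78 FPKM in laminin-negative cells, and Nfatc1 at 0.336 ± 0.0277 FPKM in laminin-positive cells and 1.52 ± 0.0362 FPKM in laminin-negative cells. Nfatc2 stood at 0.511 ± 0.182 FPKM in laminin-positive cells and 1.58 ± 0.178 FPKM in laminin-negative cells. Prickle3, a polarity gene, had 8.41 and 8.59 FPKM in laminin-positive libraries, against 17.2 and 16.9 FPKM in laminin-negative libraries (2.01-fold lower, limma adjusted p = 6.04e-06).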

How the data were processed

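The deposited table gives FPKM for each of the 4 libraries, per the file headers. TopHat2 2.1.1 and Cufflinks 2.2.1 are listed in the submitters' processing notes, with no role stated. Build, annotation, strandedness of counting and scaling of the libraries were not given in the sources used here. Of 21203 rows with a unique symbol, 99.6% overlapped the GENCODE M21 gene of that symbol on GRCm38, as did all 64 members, so coordinates are given from that annotation. Rows of at least 1 FPKM in at least 2 libraries (12348) were tested on log2(FPKM + 1) with limma 3.58.1 (R 4.3.3), with variances moderated along a trend in mean level, as a two-sided test with no block for the replicate number, and Benjamini-Hochberg adjustment over all tested rows and 0.05 as the threshold. Depth is known only roughly, and the number of libraries limits precision. Ratios are of mean FPKM. Values for each library are given for members called at 2-fold or more, members of at least 20 FPKM in a population and those nearest to the filter, and further members were added for their role. From each other list, the 3 called genes with the widest difference in each direction are named. The members and lists were chosen with earlier results of these data known. Of 27 other extracellular modulators listed, 26 have a row.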

Additional observations from a re-analysis of the deposited data

How the results depend on the processing

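The 14 alternatives changed the pseudocount, the filter, the moderation, the scaling, the block or the libraries. Members called higher and lower numbered 15 and 12, and 5 and 5 with each variance estimated on its own, where all tested rows gave 1346 and 1211 against 3288 and 3245. That setting also gave 4 higher and 1 lower in the intracellular relay, 4 lower among other modulators, and 3 higher and 2 lower among polarity genes, on 2 residual degrees of freedom. Without 1 library, members called higher ranged from 14 to 16 and lower from 9 to 11, and relay genes called lower from 2 to 5, namely 2 without laminin-positive replicate 2 and 3 without laminin-negative replicate 1. Each such fit leaves 1 library in an arm, which is assumed to vary like the rest. With equal FPKM sums the median log2 difference of all tested rows was 0.12, against 0.01, all rows split into 4273 higher and 2371 lower, and relay genes called lower numbered 2. The ratios of summed ligand and Frizzled FPKM then became 0.471 and 1.71. A filter at 5 FPKM left 4 other modulators called higher, as fewer genes were tested. The log2 difference changed sign only for members that had not passed. Tcf7l1 became 0.052 with equal FPKM sums and ranged from −0.13 to 0.0059 without 1 library. Fzd4 became −0.083 under quantile normalization and ranged from −0.039 to 0.057 without 1 library. Without 1 library Ryk ranged from −0.044 to 0.13, Ror1 from −0.026 to 0.16 and Lrp6 from −0.086 to 0.15. The cause was not tested. The labels number the samples 1 and 2 in each population, but same-numbered libraries did not deviate together (r = 0.00809 over 12348 rows). This correlation cannot show whether same-numbered samples came from the same animals. With the replicate block, 15 members were higher and 12 lower, and over all rows 3376 and 3343. Fitted without a filter, 3 of 25 members below it were called higher (Fzd10, Rspo2 and Wif1). Another 5 were called lower (Wnt10a, Wnt10b, Wnt11, Rspo3 and Sfrp4). Of all rows in that fit 36.2% were called, but these include the rows above the filter. The share among rows below it alone was not computed, so no like comparison is given. Values under about 0.1 FPKM rest on a few fragments.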
